A study of Homo sapiens with 5 samples.

Results

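MIR31HG, DLEU2, MIR22HG and MIR17HG are long noncoding RNAs whose genes also carry microRNAs, and their levels were followed across 5 RNA-sequencing libraries of HCT116, an established line of human colorectal carcinoma. These 4 hosts were picked by gene symbol, out of 57773 gene rows. All libraries came from a derivative that the series describes as lacking Dicer, the ribonuclease that cuts microRNA precursors into mature microRNAs. One library each came from cells transfected with methylated let-7a (labelled 19A), native let-7a, methylated miR-17 (labelled 13A), native miR-17 and a negative control. Which methyl group was used, the oligonucleotide sequences and whether the Dicer knockout came from a single clone are not stated in the labels. Each condition had 1 library, so no difference below has a replicate check, no p-value or SD is given, and every value describes these libraries alone.

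Most human microRNAs start as part of a longer primary transcript. The nuclear enzyme Drosha, with its partner DGCR8, cuts a hairpin out of that transcript, and Dicer then trims the exported hairpin in the cytoplasm. A host transcript can therefore be made and cut in the nucleus without Dicer, and its level in total RNA reflects synthesis, cutting and decay together. MIR17HG carries a cluster of microRNAs that lower cell-cycle inhibitors and pro-apoptotic genes, and MYC and E2F factors are known to activate it. DLEU2 lies in a region often deleted in chronic lymphocytic leukaemia and carries miR-15a and miR-16, which target BCL2. MIR31HG has been tied to the hypoxia response and to repression of CDKN2A, a gene of cell senescence. MIR22HG, the host of miR-22, is known as a stress-responsive transcript.

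The mature microRNAs are shown because one of the transfected microRNAs, miR-17, is itself a product of one host, MIR17HG. The first run of capitals in each sequence marks the seed, positions 2 to 8 from the 5′ end, which pairs with target RNAs. The further capital A in let-7a-5p is position 19, and that in miR-17-5p is position 13, the numbers in the labels of the methylated forms. Reading the label numbers as these positions is an assumption, and both hold an adenosine.
let-7a-5p: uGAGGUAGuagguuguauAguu
miR-17-5p: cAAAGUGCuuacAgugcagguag
miR-20a-5p: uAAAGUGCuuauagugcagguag
miR-18a-5p: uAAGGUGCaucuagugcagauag
miR-19a-3p: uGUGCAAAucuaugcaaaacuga
miR-19b-3p: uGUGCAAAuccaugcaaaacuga
miR-92a-3p: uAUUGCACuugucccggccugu
miR-22-3p: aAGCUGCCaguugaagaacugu
miR-31-5p: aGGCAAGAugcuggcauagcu
miR-15a-5p: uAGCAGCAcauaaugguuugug
miR-16-5p: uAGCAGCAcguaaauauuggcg
Within MIR17HG, miR-17 and miR-20a share 1 seed and miR-19a and miR-19b share another. The DLEU2 products miR-15a and miR-16 also share a seed. None of the embedded microRNAs has the let-7a seed.

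All sequences are RefSeq entries on GRCh38.p14. On that build, miR-17-5p lies at chr13:91350618-91350640 on the plus strand, and miR-92a-3p, the last of its cluster, at chr13:91351361-91351382. The let-7a-5p sequence was taken from the MIRLET7A1 gene at chr9:94175962-94175983, plus strand. MIR31 encodes miR-31-5p at chr9:21512158-21512178 and MIR22 encodes miR-22-3p at chr17:1713914-1713935, both on the minus strand. The DLEU2 products lie on the minus strand as well, miR-15a-5p at chr13:50049167-50049188 and miR-16-5p at chr13:50049027-50049048.

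The hosts differ in how the microRNA sits in them. By GENCODE 29 exons on the same build, the miR-22 arms fall in an exon of all 19 annotated MIR22HG transcripts. The 6 hairpins of MIR17HG fall in an exon of 2 of its 3 transcripts and in an intron of the other. The MIR31 hairpin lies in an intron of the 1 MIR31HG transcript, 47484 nt from the start of a gene that spans 104028 nt. MIR16-1 is intronic in 6 of 8 DLEU2 transcripts and beyond the end of the other two, and MIR15A is intronic in 6 and runs partly into an exon in 2. The deposited levels count the host genes, and reads from an intron need not contribute to them. The rows for MIR31 and MIR16-1, the embedded genes matched by symbol, were listed at 0 TPM in every library. The other 8 embedded microRNA genes were looked up by symbol and Ensembl identifier and matched no row, so no level is given for them.

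**Figure D1:**
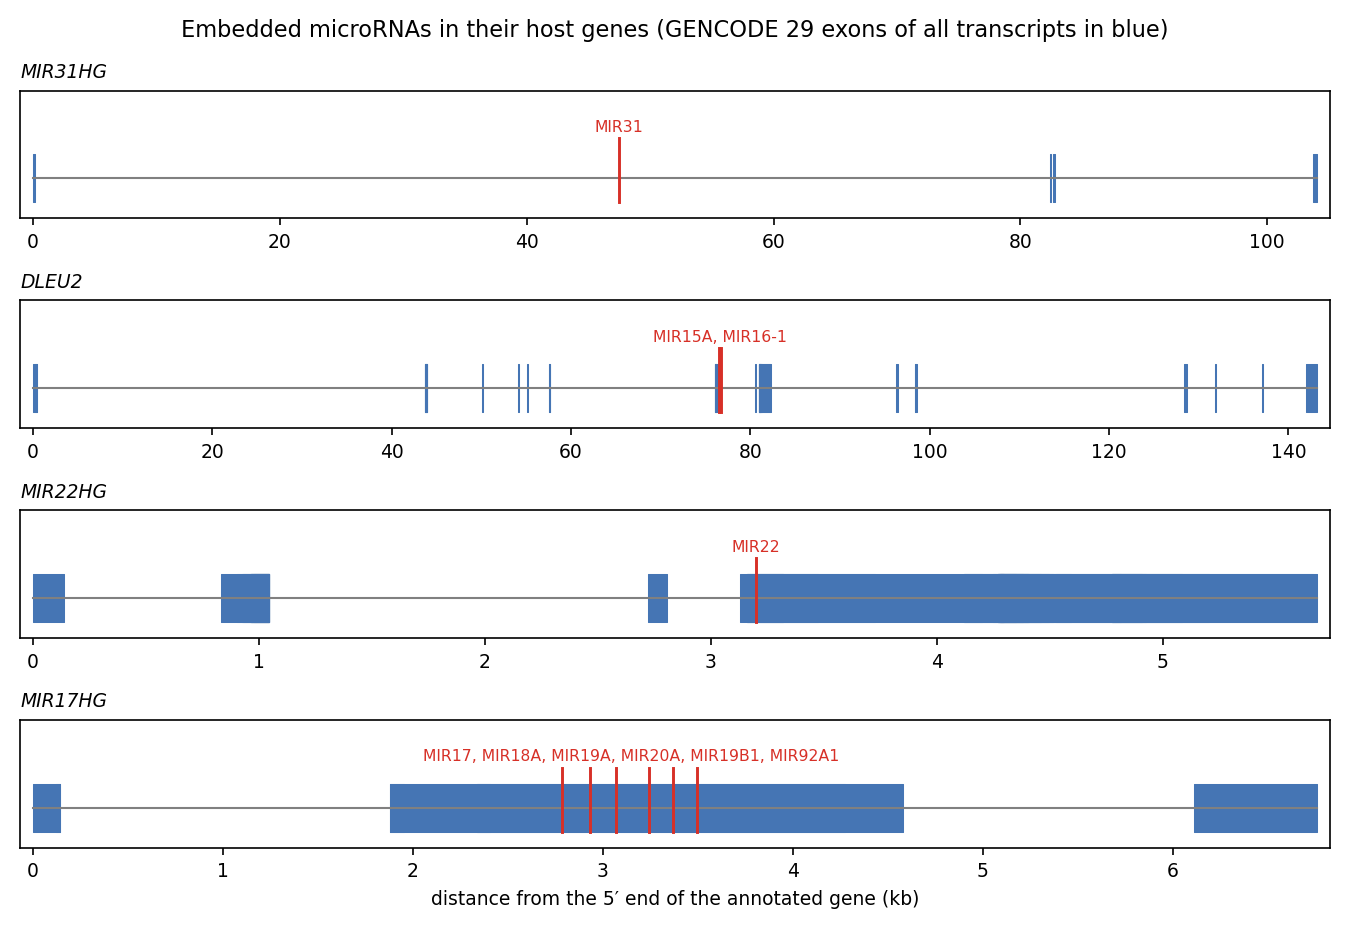
Position of the embedded microRNAs (red) and of the exons of all annotated transcripts (blue) along each host gene, as distance from the 5′ end of the gene in kb, on a separate scale per gene. MIR31 lies deep inside a long intron of MIR31HG, whereas MIR22 and the 6 hairpins of MIR17HG lie within annotated exons.

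The authors deposited TPM, the share of a library that a gene takes per unit of length, scaled to the same total in each library, rounded to 1 decimal. Read counts and sequencing depth are unknown. At least 1 TPM was listed for 14173 to 14396 genes per library, and mitochondrially encoded genes took 9.36% to 12.6% of the TPM. Epithelial keratins marked all libraries (KRT8, KRT18 and KRT19 between 1666.2 and 3109.4 TPM). VIL1 and CDX1, of the same 10-gene epithelial list, were listed at 0 throughout. Of 11 matched markers of other cell types, 3 had a mean of at least 1 TPM, the leukocyte marker PTPRC and the fibroblast marker DCN were listed at 0 in all 5 libraries. The collagen gene COL1A1 had 14.1 to 16.3 TPM in the microRNA libraries, against 10.8 TPM in the control, and the macrophage marker CD68 had 1.6 to 4.2 TPM in the microRNA libraries, against 4.0 TPM in the control. The summed level of the list was 20.5 to 23.8 TPM in the microRNA libraries, against 17.6 TPM in the control. The part of any such cells in the host levels was not tested.

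MIR31HG was the most abundant of the 4 hosts in every library. It had 11.3 TPM with methylated let-7a, 8.4 TPM with native let-7a, 12.3 TPM with methylated miR-17, 9.0 TPM with native miR-17 and 14.9 TPM in the negative control. The control was thus the highest library, the methylated forms came next and the native forms were the lowest, with no overlap between these 3 kinds of library. Differences are given as log2(TPM + 1), first library minus second. The pseudocount of 1 understates changes of low genes.

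Against the control, MIR31HG differed by -0.37 with methylated let-7a, by -0.76 with native let-7a, by -0.26 with methylated miR-17 and by -0.67 with native miR-17. The corresponding TPM ratios to the control were 0.758, 0.564, 0.826 and 0.604. The methylated form stood above its native form by 0.39 with let-7a and by 0.41 with miR-17. Rounding of the deposited values moves these differences little, to between 0.37 and 0.40 for let-7a and between 0.40 and 0.42 for miR-17.

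These differences were set beside the 14180 genes whose mean over the libraries reached 1 TPM, called the tested genes although no test was possible, which include MIR31HG, DLEU2 and MIR22HG but not MIR17HG. Of these genes, 26.5% were below the control in all 4 microRNA libraries, and 1.81% had both native libraries below the other libraries. The full order of MIR31HG, with all 4 microRNA libraries below the control and both native below both methylated libraries, was shared by 136 genes (0.959%). With libraries scaled by the median ratio of their genes instead, MIR31HG kept this order and 2.02% of genes shared it. The 4 comparisons with the control share that 1 library, so a high control value enters all of them. Among the 4738 genes with a mean level within 2-fold of that of MIR31HG, 3.10% differed from the control at least as much with native let-7a, and 7.91% with native miR-17. The figure was 13.3% with methylated let-7a and 51.1% with methylated miR-17. The order itself was noticed after the values were seen.

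**Figure D2:**
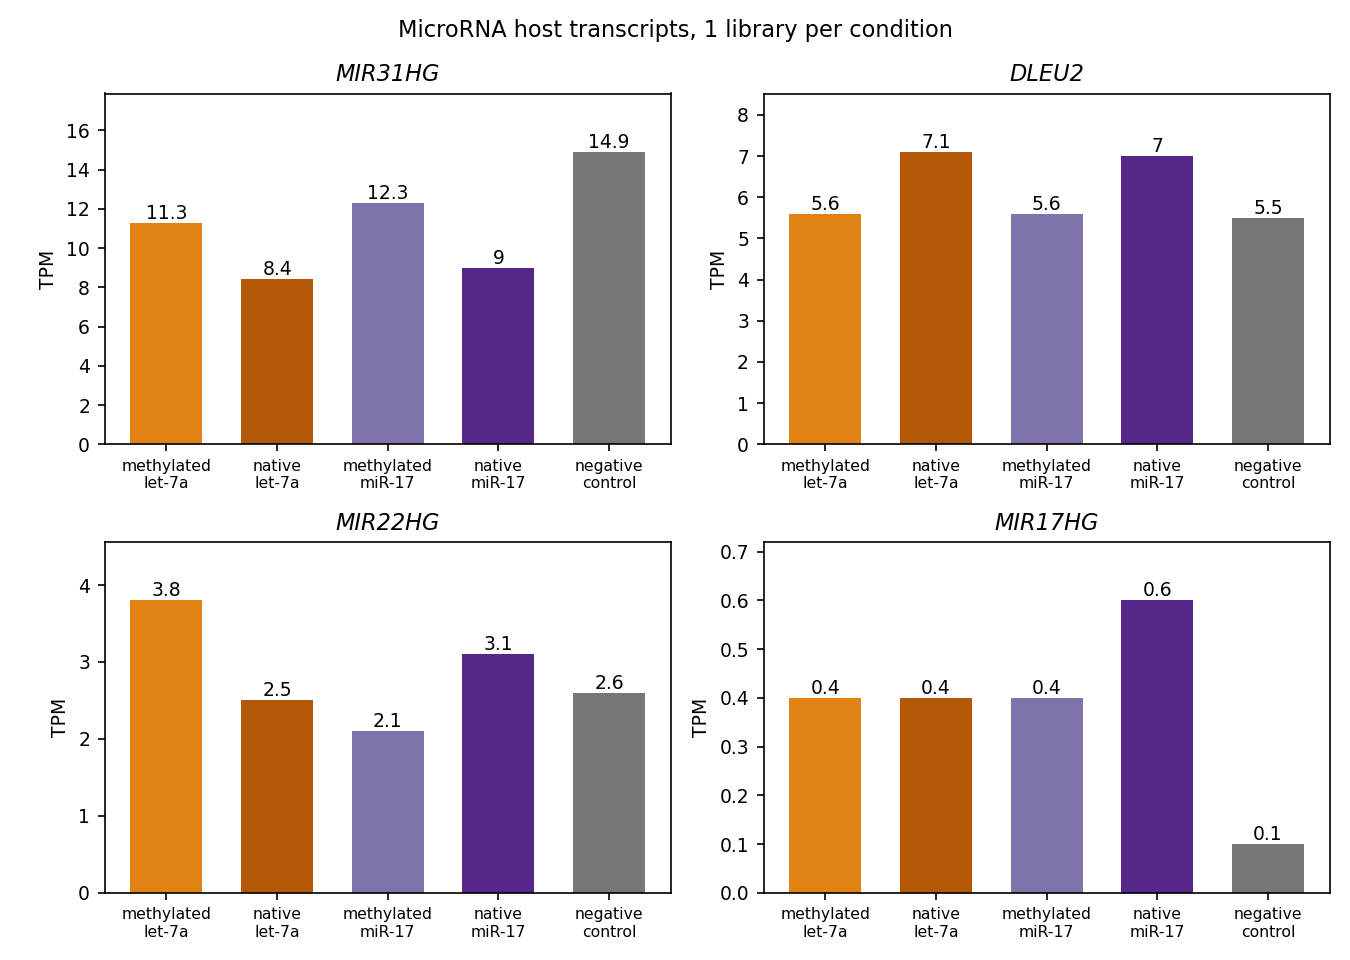
TPM of each host transcript (vertical axes, separate scale per gene, starting at 0) in the 5 libraries, 1 bar per library with its value above it and no error bars because each condition has 1 library. MIR31HG is highest in the negative control at 14.9 TPM and lowest with the native microRNAs, while DLEU2 is highest with the native microRNAs at 7.1 and 7.0 TPM.

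The gene for interferon epsilon, IFNE, lies on the same strand as MIR31HG and within its span in GENCODE 29, with no exon in common. It was not among the listed genes and was looked up because it overlaps a host. IFNE had 2.0 TPM with methylated let-7a, 1.2 TPM with native let-7a, 1.9 TPM with methylated miR-17, 1.0 TPM with native miR-17 and 4.0 TPM in the control. This is the same order of control, methylated and native libraries as for MIR31HG. Its log2 differences from the control were -0.74, -1.18, -0.79 and -1.32 in the same order of microRNA libraries, so that both native libraries were past 2-fold. Of all genes tested, 1.18% were at least 2-fold lower with native let-7a and 1.73% with native miR-17. In ribosomal RNA-depleted total RNA, reads of unspliced host RNA and reads of a gene inside the host span on the same strand cannot be told apart from these values.

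Genes farther along the MIR31HG locus did not share that order. MTAP, which salvages methionine, had 50.6 TPM with methylated let-7a, 52.3 TPM with native let-7a, 52.5 TPM with methylated miR-17, 58.1 TPM with native miR-17 and 59.8 TPM in the control. CDKN2A, which encodes the cell-cycle inhibitor p16, had 21.5 TPM with methylated let-7a, 28.5 TPM with native let-7a, 28.0 TPM with methylated miR-17, 26.0 TPM with native miR-17 and 23.6 TPM in the control. The largest difference of CDKN2A from the control was 0.26, with native let-7a.

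DLEU2 showed the opposite arrangement of native and methylated libraries. It had 5.6 TPM with methylated let-7a, 7.1 TPM with native let-7a, 5.6 TPM with methylated miR-17, 7.0 TPM with native miR-17 and 5.5 TPM in the control. Both native libraries stood above the other three, which lay within 0.1 TPM of each other, the step to which the values were rounded. Both native libraries above the other libraries was the order of 8.98% of the genes tested. With median-ratio scaling DLEU2 kept the order and 4.96% of genes had it. All 4 microRNA libraries were above the control for DLEU2, as for 21.1% of tested genes, but with scaling that leaves out mitochondrially encoded genes its difference for methylated miR-17 was -0.02.

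The native forms were 0.32 (let-7a) and 0.30 (miR-17) above the control for DLEU2, and both methylated forms were 0.02 above it. Methylated let-7a stood 0.30 below native let-7a, and methylated miR-17 0.28 below native miR-17. Among the 3826 genes of similar mean level, 18.8% differed at least as much between the let-7a forms and 27.4% between the miR-17 forms. Against the control the shares were 92.7% with methylated let-7a, 30.2% with native let-7a, 96.2% with methylated miR-17 and 40.5% with native miR-17. Across all genes tested, 37% were lower with the methylated form of both microRNAs, as DLEU2 was, and 8.92% were higher with both, as MIR31HG was. This imbalance depended on scaling: with the median ratio the shares were 21.0% lower and 20.6% higher, and both hosts kept their directions. With scaling that leaves out mitochondrially encoded genes the imbalance remained, at 37.1% lower and 9.93% higher. For single microRNAs, 57.1% of genes were lower and 39.8% higher with methylated let-7a than with native let-7a, and 69% were lower and 28.4% higher with methylated miR-17 than with native miR-17. With the median ratio the shares of higher genes were 51.2% for let-7a and 48.3% for miR-17, and without mitochondrially encoded genes 47.8% and 25.0%.

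DLEU2 overlaps other genes on the opposite strand. TRIM13, which encodes a ubiquitin ligase and shares exonic sequence with DLEU2, had 20.8 TPM with methylated let-7a, 20.1 TPM with native let-7a, 18.1 TPM with methylated miR-17, 20.3 TPM with native miR-17 and 21.6 TPM in the control. DLEU1, a noncoding gene that runs from the same region in the other direction, had 4.7 TPM with methylated let-7a, 6.2 TPM with native let-7a, 4.3 TPM with methylated miR-17, 3.6 TPM with native miR-17 and 4.2 TPM in the control. Neither had both native libraries above the rest. KCNRG, a protein-coding gene on the opposite strand with no exon in common, was named after its values were seen. It had 5.2 to 7.5 TPM, and the control was its highest library. The libraries were stranded, but whether the counting used the strand is not given in the sources used here, so the split between DLEU2 and TRIM13 is uncertain. The related gene DLEU2L was listed at 0 to 0.3 TPM.

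MIR22HG was low in all libraries and did not separate native from methylated forms in a shared direction. It had 3.8 TPM with methylated let-7a, 2.5 TPM with native let-7a, 2.1 TPM with methylated miR-17, 3.1 TPM with native miR-17 and 2.6 TPM in the control. Methylated let-7a was the highest library and methylated miR-17 the lowest, and the control lay between them.

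Methylated let-7a stood 0.46 above native let-7a for MIR22HG, and methylated miR-17 stood 0.40 below native miR-17. Opposite signs of this kind were found in 48.6% of the genes tested, and in 58.2% with median-ratio scaling. Against the control, MIR22HG differed by 0.42 with methylated let-7a, -0.04 with native let-7a, -0.22 with methylated miR-17 and 0.19 with native miR-17. With native let-7a the control value was 2.6 and the library value 2.5 TPM, a gap of 1 rounding step. Of the 2934 genes of similar level, 25.6% differed from the control at least as much with methylated let-7a, 91.0% with native let-7a, 60.2% with methylated miR-17 and 63.2% with native miR-17. WDR81, a neighbour on the opposite strand with no exon in common, had 12.0 TPM with methylated let-7a, 13.8 TPM with native let-7a, 10.1 TPM with methylated miR-17, 12.6 TPM with native miR-17 and 12.6 TPM in the control. Its highest library was native let-7a and not, as for MIR22HG, methylated let-7a. Of the 12 listed neighbours of the hosts that passed the level filter, a list that does not hold IFNE, 0 were past 2-fold against the control. The share over all tested genes was 2.17% to 3.72%, depending on the library. TLCD2, next to MIR22HG and named after its values were seen, had 2.3 TPM with methylated let-7a, 2.0 TPM with native let-7a, 1.3 TPM with methylated miR-17, 3.9 TPM with native miR-17 and 2.1 TPM in the control. It was the 1 neighbour past 2-fold between forms, with methylated miR-17 at -1.09 from native miR-17. Over all tested genes, 1.68% were past 2-fold in that comparison. That share pools genes of all levels, and TLCD2 had a mean of 2.32 TPM. The counts were 238 of the 14180 tested genes and 51 of the 10780 with a mean of at least 5 TPM. MIR22HG was also lower with methylated than with native miR-17, as were 8 of the 12 neighbours and 69% of all tested genes.

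MIR17HG was near the rounding limit. It had 0.4 TPM with methylated let-7a, 0.4 TPM with native let-7a, 0.4 TPM with methylated miR-17, 0.6 TPM with native miR-17 and 0.1 TPM in the control. Its mean of 0.38 TPM left it out of the genes tested. The control was the lowest library and native miR-17 the highest. Both miR-17 libraries received a form of one of the cluster's own products, and methylated miR-17 was level with the let-7a libraries at 0.4 TPM.

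On the log2(TPM + 1) scale MIR17HG was 0.35 above the control with methylated let-7a, native let-7a and methylated miR-17, and 0.54 above it with native miR-17. Because a listed 0.1 TPM can stand for any value from 0.05 to 0.15 TPM, the TPM ratio of native miR-17 to the control lies anywhere between 3.67 and 13.0. For the other 3 libraries it lies between 2.33 and 9.0. Among the 3230 genes of similarly low level, 38.8% differed from the control at least as much with methylated let-7a, 38.9% with native let-7a, 38.7% with methylated miR-17 and 24.7% with native miR-17. The forms of let-7a had the same listed value, and methylated miR-17 was 0.19 below native miR-17.

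None of the 24 differences of the 4 hosts, in 6 comparisons, reached 2-fold in TPM + 1. The share of tested genes that did was 2.17% with methylated let-7a, 2.41% with native let-7a, 3.72% with methylated miR-17 and 3.43% with native miR-17, each against the control. Between methylated and native forms it was 1.93% for let-7a and 1.68% for miR-17. These shares leave out MIR17HG, which did not pass the level filter. Its TPM ratios to the control were 4 or 6, but the pseudocount of 1 kept its differences short of 2-fold. With a pseudocount of 0.1 its 4 differences from the control were past 2-fold. With a threshold of 1.5-fold, MIR31HG alone was past it, lower with native let-7a and with native miR-17. In all tested genes, 3.92% and 6.08% were lower by that much in those libraries. Of the 4 hosts, 3 were higher and 1 lower than the control with methylated let-7a, 2 and 2 with native let-7a, 2 and 2 with methylated miR-17, and 3 and 1 with native miR-17. The shares of tested genes higher than the control were 41% with methylated let-7a, 49.9% with native let-7a, 42.1% with methylated miR-17 and 51.5% with native miR-17. The median difference over the 3 hosts that passed the level filter was 0.02 with methylated let-7a, -0.04 with native let-7a, -0.22 with methylated miR-17 and 0.19 with native miR-17. Over all tested genes it was -0.04, 0.0, -0.06 and 0.02 in the same order. In each of the 6 comparisons at least 1 host was higher and at least 1 lower.

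**Figure D3:**
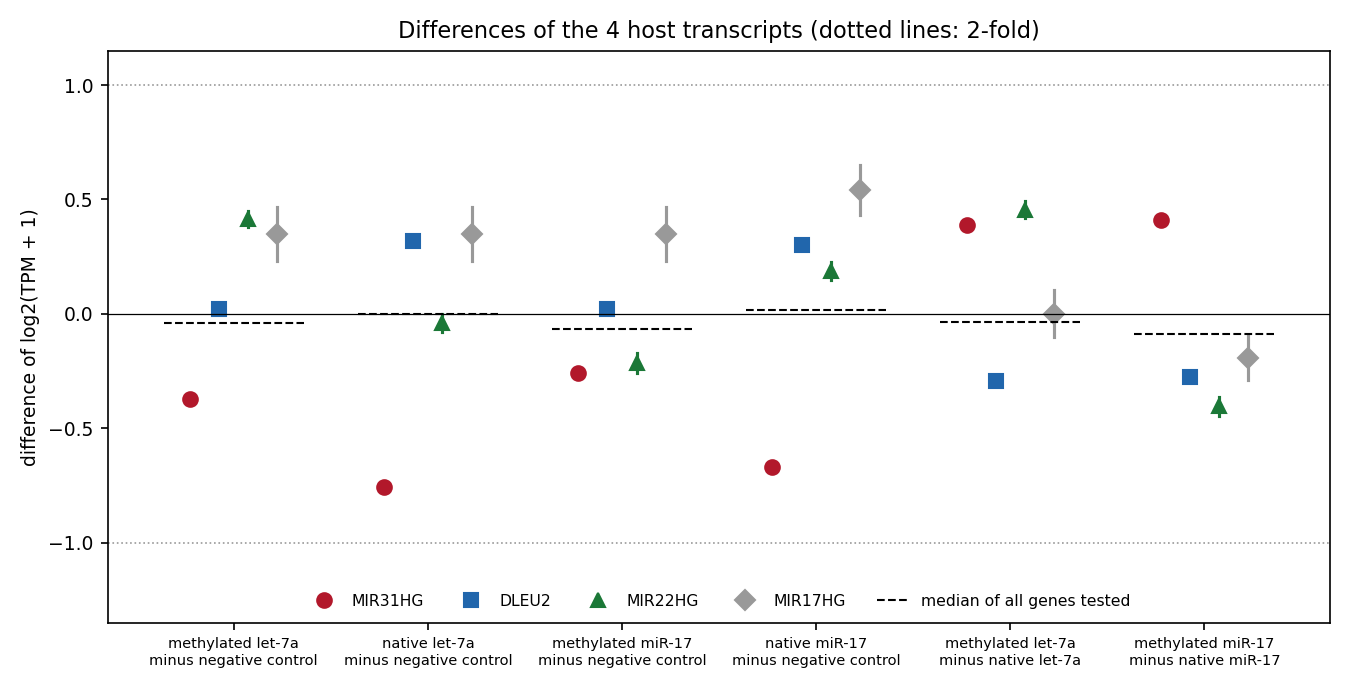
Difference of log2(TPM + 1) (vertical axis) for each host in the 6 comparisons (horizontal axis), 1 library minus 1 library. Vertical lines give the range that rounding of the deposited values allows, dashed lines the median of all genes tested and dotted lines 2-fold. MIR31HG is below 0 in all 4 comparisons with the control and the points of the 4 hosts scatter to both sides of 0.

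The spliced transcripts of the hosts were searched for matches to the transfected microRNAs, on the transcript strand. The let-7a matches were CTACCTC (positions 2 to 8) and TACCTCA (positions 2 to 7 followed by A), which overlap by 6 letters, and the miR-17 matches were GCACTTT and CACTTTA, built in the same way. The longest transcript of each host held 0 matches to either microRNA. For lncRNA genes with a longest transcript between 0.5 and 2 times as long, the share with a let-7a match was 6.18% at the length of MIR31HG, 20.4% at that of MIR22HG, 21.5% at that of MIR17HG and 22.5% at that of DLEU2. The shares with a miR-17 match were 10.9%, 35.1%, 36.5% and 37.3% in the same order. One shorter transcript, 1 of the 19 of MIR22HG, held a miR-17 match, which is shown because it is the only match found in any of the annotated transcripts of the 4 hosts; its capitals mark the match.
MIR22HG site: tgaccctttGCACTTTggcatggccc
The absence of these letters from the other transcripts says nothing about other kinds of pairing.

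DROSHA, the enzyme that cuts the hairpin from the host transcript, had 18.6 TPM with methylated let-7a, 18.0 TPM with native let-7a, 17.2 TPM with methylated miR-17, 18.7 TPM with native miR-17 and 19.2 TPM in the control. DGCR8 ranged from 10.5 to 12.6 TPM. DICER1 RNA had 12.5 TPM with methylated let-7a, 11.2 TPM with native let-7a, 12.9 TPM with methylated miR-17, 15.9 TPM with native miR-17 and 15.4 TPM in the control, a value that does not check the knockout, because Dicer-proficient cells were not analysed here. Of the 8 listed processing genes that passed the level filter, 0 were past 2-fold in any of the 6 comparisons. The share over all tested genes was also small, 1.68% to 3.72% per comparison.

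Among 11 known regulators of the hosts, 10 passed the level filter and 0 were past 2-fold, beside 1.68% to 3.72% of all tested genes. Below the control were 8 of the 10 with methylated let-7a, 5 with native let-7a, 9 with methylated miR-17 and 8 with native miR-17. The shares of all tested genes below it were 56.1%, 47.9%, 56.3% and 46.5% in that order. The median differences of the 10 regulators were -0.08, -0.05, -0.39 and -0.30, beside -0.04, 0.0, -0.06 and 0.02 over all tested genes. EPAS1, an oxygen-regulated factor related to HIF1A and named after its values were seen, had 44.6 TPM with methylated let-7a, 40.3 TPM with native let-7a, 25.3 TPM with methylated miR-17, 25.7 TPM with native miR-17 and 47.9 TPM in the control. MYC had 265.0 TPM with methylated let-7a, 284.2 TPM with native let-7a, 232.9 TPM with methylated miR-17, 238.0 TPM with native miR-17 and 283.4 TPM in the control. E2F1, a miR-17 target, had 9.3 TPM with methylated let-7a, 9.7 TPM with native let-7a, 5.8 TPM with methylated miR-17, 6.9 TPM with native miR-17 and 9.0 TPM in the control. MYC and E2F1 were lowest in the miR-17 libraries. Of the same list, E2F3 had 26.5 TPM with methylated let-7a, 27.2 TPM with native let-7a, 23.1 TPM with methylated miR-17, 29.2 TPM with native miR-17 and 26.8 TPM in the control, so it was highest in the library with the highest MIR17HG. HIF1A, the oxygen-regulated factor tied to MIR31HG and named after its values were seen, had 159.9 TPM with methylated let-7a, 177.1 TPM with native let-7a, 105.5 TPM with methylated miR-17, 109.6 TPM with native miR-17 and 161.7 TPM in the control. It separated the microRNAs rather than the methylated from the native forms.

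Of 35 further noncoding microRNA hosts, 34 were matched, 18 of them by Ensembl identifier under another name, and 9 passed the level filter. Of these 9, 6 lay below the control in the methylated let-7a library, 6 in the native let-7a library, 7 in the methylated miR-17 library and 6 in the native miR-17 library, against 56.1%, 47.9%, 56.3% and 46.5% of all tested genes. Their median differences were -0.11, -0.43, -0.45 and -0.23 in that order, against -0.04, 0.0, -0.06 and 0.02 over all tested genes. Methylated against native libraries had a median of 0.20 for let-7a and -0.11 for miR-17, beside -0.03 and -0.09 over all tested genes.

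Of the 9 hosts, H19 and MIR663AHG were past 2-fold against the control, in 1 library each. H19 passed it narrowly with methylated miR-17, at -1.05, and MIR663AHG passed it with methylated let-7a. The shares of all tested genes past 2-fold in those libraries were 3.72% and 2.17%. Both shares pool genes of all levels, and H19 had a mean of 4.52 TPM. H19, an imprinted RNA that carries miR-675, had 4.0 TPM with methylated let-7a, 4.3 TPM with native let-7a, 3.1 TPM with methylated miR-17, 3.7 TPM with native miR-17 and 7.5 TPM in the control. Like MIR31HG it was highest in the control, but its native libraries were not below the methylated ones. LINC-PINT, named after its values were seen, did have the full order of MIR31HG, at a low level. It had 1.7 TPM with methylated let-7a, 1.3 TPM with native let-7a, 1.7 TPM with methylated miR-17, 1.5 TPM with native miR-17 and 2.1 TPM in the control. MIR663AHG had 36.3 TPM with methylated let-7a, 7.3 TPM with native let-7a, 7.7 TPM with methylated miR-17, 9.2 TPM with native miR-17 and 10.9 TPM in the control. It was high in the methylated let-7a library alone, with a log2 difference of 1.65 from the control and 2.17 from native let-7a. The row bears the name MIR663A in the deposited table and was matched by identifier.

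MIR210HG, the host of the hypoxia-induced miR-210, was just short of 2-fold and was picked after its values were seen. It had 6.0 TPM with methylated let-7a, 3.9 TPM with native let-7a, 3.2 TPM with methylated miR-17, 3.2 TPM with native miR-17 and 7.3 TPM in the control. The control was again the highest library. The methylated form stood above the native one for let-7a and level with it for miR-17.

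**Figure D4:**
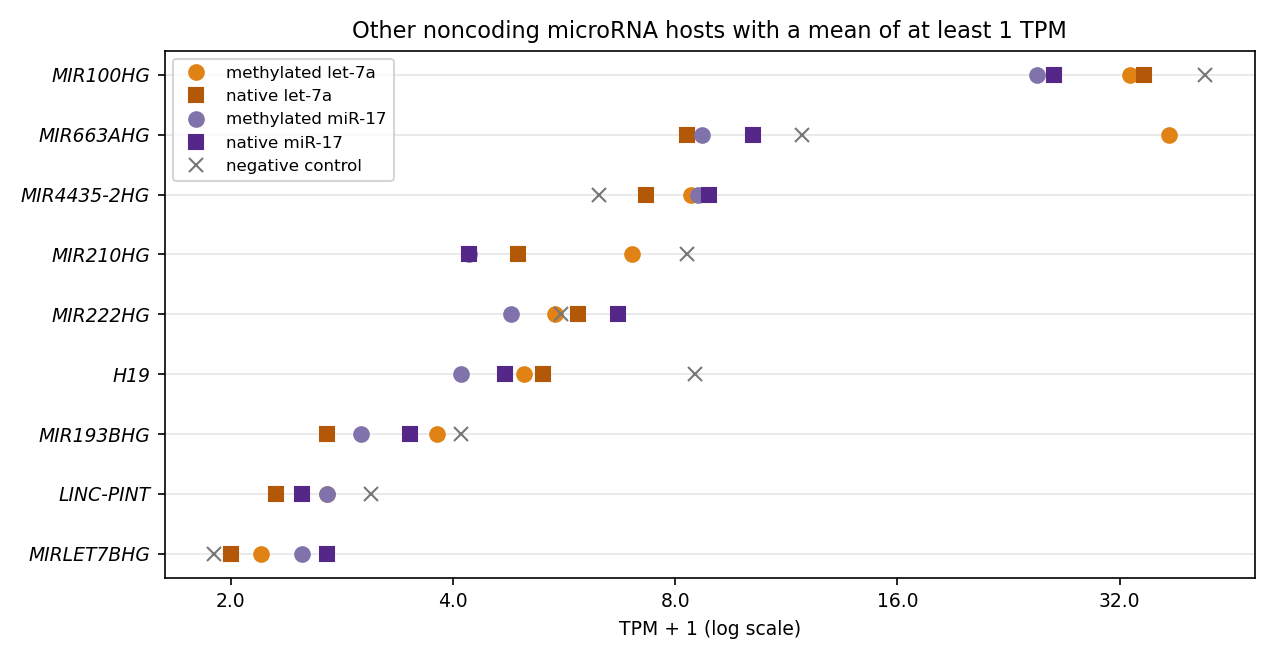
Levels of the 9 other noncoding microRNA hosts that passed the level filter, as TPM + 1 on a log scale (horizontal axis), with 1 symbol per library. The MIR663AHG point of methylated let-7a lies apart from the rest at 36.3 TPM, the control is the highest library for H19, MIR210HG, MIR100HG, MIR193BHG and LINC-PINT, and the methylated and native miR-17 points of MIR210HG coincide.

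Of 38 protein-coding hosts listed, 34 passed the level filter and 0 were past 2-fold in any of the 6 comparisons. Per comparison, 1.68% to 3.72% of all tested genes were past it. Below the control were 22 of the 34 in the methylated let-7a library, 20 in the native let-7a library, 22 in the methylated miR-17 library and 14 in the native miR-17 library, beside 56.1%, 47.9%, 56.3% and 46.5% of all tested genes. PANK3, a pantothenate kinase that hosts a miR-103 gene, and WDR82, which hosts let-7g, were picked after their values were seen. PANK3 had 60.9 TPM with methylated let-7a, 58.6 TPM with native let-7a, 29 TPM with methylated miR-17, 35.9 TPM with native miR-17 and 54.0 TPM in the control. WDR82 had 122.6 TPM with methylated let-7a, 122.2 TPM with native let-7a, 82.0 TPM with methylated miR-17, 91.9 TPM with native miR-17 and 122.1 TPM in the control. Both were below the control in the miR-17 libraries and not in the let-7a libraries.

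The genes most like each host were found by the root mean square distance between log2(TPM + 1) profiles over the 5 libraries, each centred on its own mean, among the 10780 genes whose mean reached 5 TPM. For MIR31HG these were UNC5B-AS1, RRAD and AVEN, at distances of 0.094, 0.096 and 0.099, against a spread of MIR31HG about its own mean of 0.276. RRAD, a small GTP-binding protein, had 6.3 TPM with methylated let-7a, 5.0 TPM with native let-7a, 6.0 TPM with methylated miR-17, 4.5 TPM with native miR-17 and 7.9 TPM in the control. For DLEU2 the nearest were ELOVL3, PRR4 and WAC-AS1, at 0.032 each, against a spread of 0.144. For MIR22HG they were RP11-977G19.5, ZNF395 and MRPL45P2, at 0.061, 0.072 and 0.078, against 0.215. For MIR17HG they were DNAJC15, TM7SF3 and CYB561A3, at 0.028, 0.028 and 0.033, against 0.175, a match that depends on the pseudocount because MIR17HG is so low.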

How the data were processed

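Isogen was used to extract RNA, and a stranded kit with removal of ribosomal RNA to make the libraries, per the labels' protocols. The authors deposited 1 table of TPM values per gene, with 1 digit after the point. The build was hg19, per the submitters' processing notes. Aligner, counting tool, annotation release and depth were not given in the sources used here. Differences of log2(TPM + 1) were computed with Python 3.11.15 and pandas 2.3.3, 1 library minus 1 library, in 6 comparisons. Genes whose mean reached 1 TPM were the background, and 2-fold in TPM + 1 was a rule of size, not a test, its arithmetic checked on simulated data without noise. The members and lists were chosen with earlier results of these data known. Named were all 4 members, listed genes past 2-fold against the control, overlapping and adjoining genes, set regulators (1 is not reported here) and processing enzymes, and the 3 nearest profiles. Other symbols were matched through Ensembl identifiers. GENCODE 29 and RefSeq, both on GRCh38, gave exons, transcripts and sequences, and no coordinate was carried to hg19. Pseudocount, filter, scaling, threshold and reference were varied.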

Additional observations from a re-analysis of the deposited data

Results flagged for a closer look

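MIR22HG moved in opposite directions with the methylated forms of the microRNAs. It stood 0.46 (log2 of TPM + 1) above native let-7a with methylated let-7a and 0.40 below native miR-17 with methylated miR-17, so that the let-7a difference exceeded the miR-17 difference by 0.86. This difference between the microRNAs was not tested, since each value rests on 1 library. Opposite signs were found in 48.6% of all genes tested.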

How the results depend on the processing

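No paired analysis was possible because each group holds 1 library, and for the same reason no library could be left out of a group. Sequencing depth is unknown and limits every level under about 1 TPM. In the following, values run in the order methylated let-7a, native let-7a, methylated miR-17 and native miR-17 against the control, then methylated against native let-7a and miR-17. With a pseudocount of 0.1 or 5, or median-ratio scaling, 0 of the 24 host differences changed sign, and scaling without mitochondrially encoded genes turned 1, DLEU2 with methylated miR-17 against the control. Scaling moved the median of all genes by at most 0.08. A pseudocount of 0.1 took 4 differences past 2-fold, all of MIR17HG against the control. With the mean of the other microRNA's libraries in place of the control, 6 of 16 changed sign, among them MIR31HG in both methylated libraries.
The median over the 3 hosts that passed the filter was 0.02, -0.04, -0.22, 0.19, 0.39 and -0.28. A pseudocount of 5 moved it to -0.10 for methylated miR-17 against the control and 0.23 for methylated against native let-7a. A filter at 5 TPM, which left 2 hosts, gave -0.17 and -0.22 for the let-7a libraries and -0.18 for native miR-17 against the control, and 0.046 and 0.067 for methylated against native let-7a and miR-17. With no filter and 4 hosts it was 0.18 and 0.14 for the let-7a libraries, -0.10 for methylated miR-17 and 0.19 for methylated against native let-7a. With the let-7a libraries as reference, native miR-17 had 0.00043. The filters change which hosts enter the median.
The number of genes past 2-fold was 307, 342, 527, 486, 274 and 238. With a pseudocount of 0.1 it was 547, 644, 930, 841, 495 and 443, and with 5 it was 42, 81, 137, 124, 43 and 33. A filter at 5 TPM gave 74, 111, 255, 232, 46 and 51. With no filter the let-7a counts against the control were 549 and 590, and those of methylated against native forms 519 and 481. A threshold of 1.5-fold gave 912, 1163, 2221, 1808, 656 and 610.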
